A study of Oryza sativa with 12 samples.

Results

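The heat response of the rice line NIL-TT2HJX was described from 6 of the 12 libraries of the series, those whose columns carry the line and the temperature of either group. They are 3 libraries of seedlings held at 42.5 °C for 20 h and 3 libraries of seedlings at 28 °C. All 6 come from the aerial organs of 12-day-old Oryza sativa seedlings of the same line, which the labels give as the wild type for TT2. TT2 encodes a gamma subunit of a heterotrimeric G protein. A near-isogenic line carries a donor segment in the background of a recurrent parent, so NIL-TT2HJX (HJX below) and the line NIL-TT2HPS32 (HPS32 below), labelled as carrying a loss-of-function TT2, can differ in genes of that segment other than TT2. HPS32 was sampled at the same temperatures, with 3 libraries each, and enters only where the heat responses of the lines are compared. Heat was sampled at a single time, shoots were taken whole, and the labels do not say whether libraries are separate plants. The p-values therefore measure the spread between these libraries. In RNA of whole organs, fewer cells of a type and less RNA per cell cannot be told apart.

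Heat unfolds proteins, and plants answer with heat stress transcription factors that raise chaperones. Small heat shock proteins hold unfolded proteins, Hsp70, Hsp90 and their co-chaperones refold them, and ClpB-type ATPases pull aggregates apart, while ubiquitin marks what cannot be saved for degradation. Photosynthesis is among the most heat-sensitive processes of a leaf, and its proteins are mostly encoded in the nucleus and imported into the plastid.

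The heat libraries held 15859583, 15195234 and 17805120 reads assigned to genes, against 16308041, 17871972 and 15559263 at 28 °C. Levels are CPM, read counts set to a common library size, with TMM scaling, a method that sets the bulk of genes equal between libraries. The TMM factors were 1.06 to 1.07 under heat and 0.843 to 0.89 at 28 °C. Log2 CPM of the tested genes correlated at r = 0.992 to 0.994 among the heat libraries, at 0.985 to 0.991 among the 28 °C libraries and at 0.817 to 0.838 between the temperatures. TT2 itself (Os03g0407400, domain description GGL) was barely read: it had 2, 2 and 4 reads in the heat libraries, against 0, 6 and 3 at 28 °C, and was not tested. Its level under heat was not distinguishable from that at 28 °C at this depth.

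Genes were tested with edgeR's quasi-likelihood test and called at a Benjamini-Hochberg adjusted p below 0.05. Of 40674 listed genes, 25473 passed the filter on low counts and 19079 were called (74.9%). Of the tested genes, 9698 rose under heat (38.1%) and 9381 fell (36.8%). The counts of the gene lists below are to be read beside these shares. Over all tested genes the median was 0.03 on the log2 scale. Scaled to total counts it was 0.32, with 12238 rises and 7289 falls. A list's median is therefore given with its total-count value wherever that turns the sign, and its counts wherever that turns or evens their balance. Such values are to be read beside the total-count median and counts over all tested genes, since a turn can come from this general shift alone. Of the tested genes, 22347 had reads enough to pass the filter at both temperatures, 2099 passed through the heat libraries of the lines alone and 869 through the 28 °C libraries alone. The filter took both lines together, so a gene that passed through one temperature alone was picked for a higher level there in either line. It need not be higher there in HJX. A list's counts are therefore also given for the genes that passed at both wherever that turns or evens their balance. The median log2 fold change was 1.04 among the rises and -1.27 among the falls. At a log2 fold change of 1 or more, 5054 genes rose (19.8% of those tested) and 5742 fell (22.5%). At 2 or more, 1935 rose (7.6%) and 2679 fell (10.5%). At 3 or more, 855 rose (3.36%) and 1202 fell (4.72%), and at 5 or more the counts came close, at 293 rises (1.15%) and 269 falls (1.06%). In 19687 genes (77.3%) the 3 heat libraries lay wholly above or wholly below the 3 libraries at 28 °C. Most genes named from the lists below were picked among called members without such an overlap. Their lack of overlap follows from that choice and describes the values only.

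**Figure D1:**
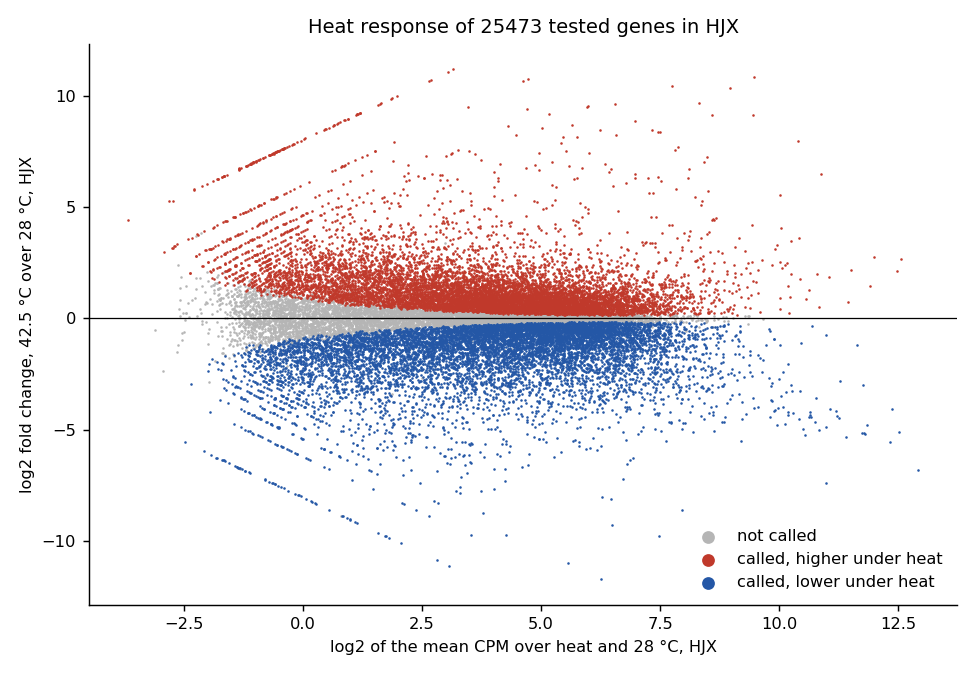
The log2 fold change of heat over 28 °C in HJX (vertical axis) is plotted against the log2 of the mean CPM over both temperatures (horizontal axis), 1 point for each of 25473 tested genes, in red for called rises, blue for called falls and grey for genes not called. Both directions are filled at every level, and the highest levels at right hold mostly falls.

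Some genes had reads at one temperature only. There were 90 genes with no read at 28 °C and at least 10 reads in every heat library, of which 35 are transcripts marked in the table as unannotated. The reverse held for 37 genes, of which 1 is such a transcript. Called genes also differed in length: the median was 1690 bases for rises, 1421 for falls and 1533 for all tested genes. Among genes under 1000 bases 30.3% rose and 40.9% fell, and among genes of 3000 bases or more 49.2% rose and 28.8% fell. The mean gene length weighted by reads was 2081 to 2100 bases in the heat libraries and 1795 to 1839 bases at 28 °C, and the part of library quality in this was not tested. On chromosomes 1 to 12 the shares were even, with 35.3% to 40% of tested genes rising and 34.4% to 38.1% falling.

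The RNA pool was more evenly spread under heat. Between 1695 and 1760 genes held 50% of the reads in the heat libraries, against 1171 to 1311 genes at 28 °C. The 10 most abundant genes held 5.56% to 5.69% of reads under heat and 6.66% to 7.86% at 28 °C.

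Among called genes with a description, the largest gain in CPM was that of Os01g0256500, a late embryogenesis abundant (LEA) protein gene (chromosome 1, 8546065 to 8546869, minus strand). LEA proteins are hydrophilic proteins known for protecting cells against drying. It had 10790, 10239 and 10382 CPM in the heat libraries, against 1619, 1669 and 1564 CPM at 28 °C. All heat libraries lay far above all 28 °C libraries (log2 fold change 2.69 ± 0.10, adjusted p = 4.72e-15), where ± gives the standard error (SE) here and below. The next were Os03g0670700, an RNA recognition motif (RRM) gene, and Os02g0161900, a ubiquitin gene. Os03g0670700 had 9295, 9310 and 9259 CPM in the heat libraries, against 2157, 2021 and 2207 CPM at 28 °C (log2 fold change 2.13 ± 0.10). Os02g0161900 had 6949, 7410 and 6778 CPM in the heat libraries, against 988, 1031 and 1082 CPM at 28 °C (log2 fold change 2.77 ± 0.10). The groups of both genes stood clear of each other.

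A chaperone gene and a gene named for its translational control came next. Os11g0703900, an Hsp70 gene, had 5323, 6013 and 5379 CPM in the heat libraries, against 1918, 2162 and 2070 CPM at 28 °C (log2 fold change 1.44 ± 0.10, adjusted p = 5.41e-11). Os11g0660500, described as translationally controlled tumour protein, had 5026, 4589 and 4663 CPM in the heat libraries, against 1010, 1011 and 1115 CPM at 28 °C (log2 fold change 2.19 ± 0.10). Neither gene's groups overlapped.

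Signalling and detoxification genes completed the 10 largest gains. Os11g0113700 and Os12g0113500 encode protein kinases with a NAF domain, the stretch through which such kinases bind calcium sensors. Os11g0113700 had 2593, 2416 and 2581 CPM in the heat libraries, against 181, 208 and 234 CPM at 28 °C (log2 fold change 3.61 ± 0.11), and Os12g0113500 averaged 1798 ± 119 CPM under heat and 186 ± 28 CPM at 28 °C (SD, n = 3 each). They lie on the similar ends of chromosomes 11 and 12, so reads could be split between them and their separate levels are uncertain. Both glyoxalase-family genes among the gains rose more in ratio: Os02g0168100 had 2098, 2216 and 1808 CPM in the heat libraries, against 47.7, 44.3 and 41.3 CPM at 28 °C (log2 fold change 5.52 ± 0.11, adjusted p = 3.14e-18), and Os05g0171900 averaged 1971 ± 285 CPM under heat and 117 ± 20.2 CPM at 28 °C (SD, n = 3 each). Proteins of this family include enzymes that clear methylglyoxal, a toxic by-product of sugar breakdown. Os04g0659300, with a domain described as salt stress response or antifungal, had 2110, 2314 and 2243 CPM in the heat libraries, against 138, 262 and 200 CPM at 28 °C (log2 fold change 3.47 ± 0.25). Its 28 °C libraries were uneven, and the groups did not overlap.

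The largest losses were of photosynthesis genes. Os01g0600900, a chlorophyll a/b binding protein gene, had the highest level of any tested gene at 28 °C and had 95.7, 182 and 136 CPM in the heat libraries, against 16558, 15981 and 13294 CPM at 28 °C. No heat library came near the 28 °C level (log2 fold change -6.79 ± 0.27, adjusted p = 1.48e-10). Os11g0707000, an AAA-type ATPase gene, had 210, 246 and 190 CPM in the heat libraries, against 11286, 10344 and 8538 CPM at 28 °C (log2 fold change -5.55 ± 0.14, adjusted p = 3.81e-17). Os03g0592500 and Os09g0346500, both of the chlorophyll a/b binding family, averaged 336 ± 91.7 CPM under heat and 11320 ± 1388 CPM at 28 °C and 591 ± 137 CPM under heat and 10018 ± 1187 CPM at 28 °C, in that order (SD, n = 3 each). Os01g0501800, the manganese-stabilising protein of photosystem II, kept the most of these 5, with 746, 897 and 717 CPM in the heat libraries, against 6698, 6320 and 5454 CPM at 28 °C (log2 fold change -2.97 ± 0.11).

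**Figure D2:**
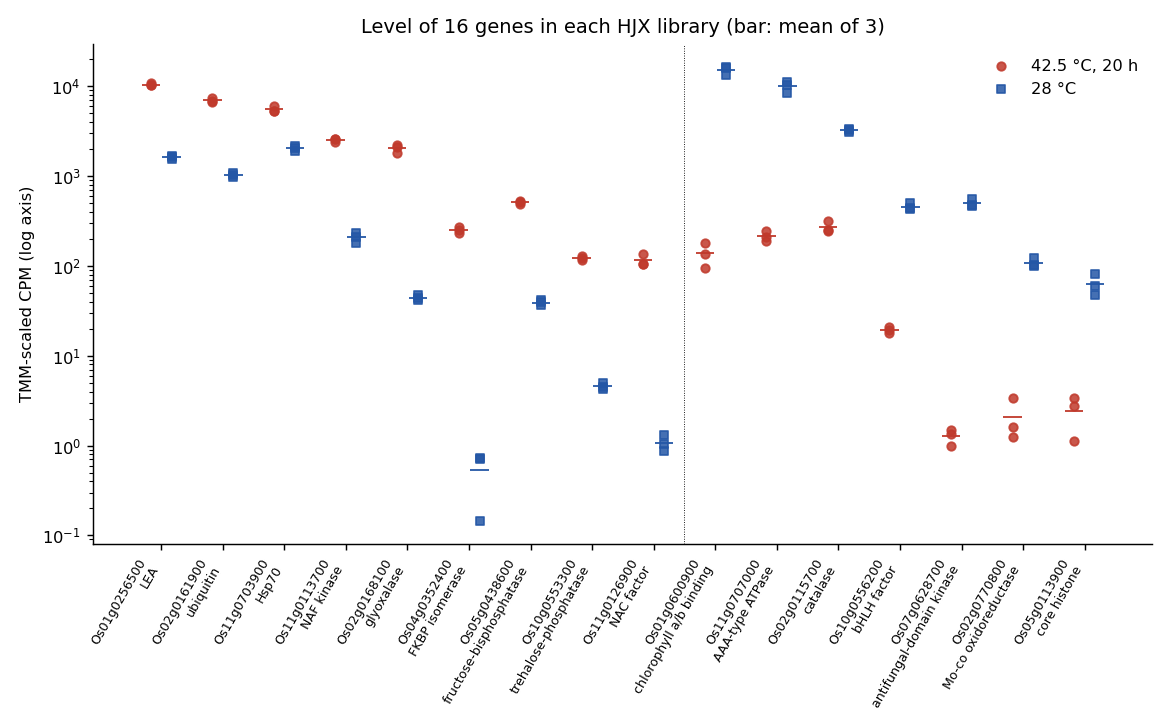
Level of 16 named genes in each HJX library, in TMM-scaled CPM on a log axis, with heat libraries as red circles to the left, 28 °C libraries as blue squares to the right and a bar at each mean of 3 libraries. The 9 genes left of the dotted line were higher in every heat library than in any 28 °C library, and the 7 genes right of it lower, with Os01g0600900 at a mean of 138 CPM under heat and 15278 CPM at 28 °C.

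Chaperone classes differed in direction. Of the small heat shock proteins (Hsp20), 17 of 29 tested members rose, 9 fell and 3 were not called, out of 38 listed, with a median log2 fold change of 1.79, against 0.03 over all tested genes. Of the 29 tested, 12 passed the filter through the heat libraries alone and so were picked for a high level there. Of the 17 that passed at both temperatures, 7 rose and 9 fell (median -0.33), so the majority of rises rests on genes below the filter's level at 28 °C. Os01g0136100, an Hsp20 gene, had 52.7, 45.3 and 54.1 CPM in the heat libraries, against 0.437, 0.588 and 0.361 CPM at 28 °C (log2 fold change 6.74 ± 0.20, adjusted p = 4.02e-16), with every heat library far above the 28 °C level. Its 28 °C levels stand for few reads, since 3 reads are 0.196 to 0.218 CPM there. It may therefore be among the genes that the filter picked for a high level under heat, and its p is no separate evidence for the class. Hsp70 genes gave 16 rises and 4 falls in 25 tested of 45 listed (median 0.96). The Hsp70 gene Os03g0277300 had 158, 174 and 149 CPM in the heat libraries, against 13, 14.1 and 6.15 CPM at 28 °C (log2 fold change 3.85 ± 0.32, adjusted p = 3.71e-06), with a wide spread at 28 °C and no overlap.

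All but 2 tested Hsp90 genes rose: 7 rose and 0 fell of 9 tested and 11 listed (median 2.13). Os09g0482100 had 1773, 1811 and 1748 CPM in the heat libraries, against 308, 315 and 302 CPM at 28 °C (log2 fold change 2.53 ± 0.08, adjusted p = 1.30e-15), and Os08g0500700 averaged 546 ± 33.7 CPM under heat and 125 ± 17.8 CPM at 28 °C (SD, n = 3 each). The other 2 overlapped between the temperatures. Os06g0716700 averaged 135 ± 9.57 CPM under heat and 141 ± 15.7 CPM at 28 °C and Os09g0474300 145 ± 11.5 CPM under heat and 144 ± 12.3 CPM at 28 °C (SD, n = 3 each), with log2 fold changes of -0.07 ± 0.08 and 0.02 ± 0.09. Scaled to total counts both came out as rises, Os06g0716700 at 0.23 with an adjusted p of 0.0146, the opposite sign, and Os09g0474300 at 0.31 with an adjusted p of 0.00224.

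ClpB-type and other Clp ATPases were divided: 7 rose and 6 fell of 13 tested and 15 listed (median 0.40), with 6 of each among the 12 past the filter at both temperatures. Os05g0519700, with a Clp amino-terminal domain, had 113, 124 and 99.5 CPM in the heat libraries, against 4.59, 5.55 and 4.12 CPM at 28 °C (log2 fold change 4.56 ± 0.12, adjusted p = 8.73e-17), and its groups were far apart. Chaperonins, the barrel-shaped folding machines of plastids and mitochondria, gave 14 rises and 10 falls in 29 tested of 35 listed (median 0.20). Os02g0781400, a 10 kDa chaperonin subunit, had 8.19, 11.4 and 7.08 CPM in the heat libraries, against 83.5, 81.2 and 83 CPM at 28 °C (log2 fold change -3.22 ± 0.13, adjusted p = 3.20e-13). Of the DnaJ co-chaperones, which deliver clients to Hsp70, 38 rose and 21 fell of 80 tested and 94 listed (median 0.18). Os06g0195800 rose, with 22.4 ± 0.944 CPM under heat and 3.05 ± 0.973 CPM at 28 °C (SD, n = 3 each). The protein disulfide isomerase type thioredoxins gave 5 rises and 2 falls in 9 tested of 9 listed (median 0.52), and the calreticulin family 2 rises and 2 falls in 5 tested of 5 listed (median -0.00), with a median of 0.29 when scaled to total counts.

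Peptidyl-prolyl isomerases, which turn proline bonds during folding, fell more often than they rose: 17 rose and 27 fell of 47 tested and 51 listed (median -0.56). Os08g0382400, of the cyclophilin type, fell, with 21.4 ± 4.77 CPM under heat and 192 ± 20.2 CPM at 28 °C (SD, n = 3 each). One FKBP-type member went far the other way: Os04g0352400 had 249, 272 and 233 CPM in the heat libraries, against 0.728, 0.718 and 0.145 CPM at 28 °C (log2 fold change 8.85 ± 0.17, adjusted p = 1.39e-17), and held 10.5% of the list's summed CPM under heat and 0.0126% at 28 °C. Of 6 tested BAG-domain co-chaperone genes, 2 rose and 4 fell (median -0.45). Os11g0506800 had 18.5, 21.1 and 17.7 CPM in the heat libraries, against 0.728, 0.979 and 0.289 CPM at 28 °C, a log2 fold change of 4.81 ± 0.31, while Os09g0524800, with a ubiquitin and a BAG domain, averaged 37 ± 2.53 CPM under heat and 93.6 ± 17.6 CPM at 28 °C (SD, n = 3 each) and fell.

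Lists of genes for protein removal differed in how far they stood from the shares over all tested genes. F-box genes, the substrate-choosing subunits of ubiquitin ligases, rose more often than they fell: 69 rose and 31 fell of 136 tested and 219 listed (median 0.44). Os05g0177100 had 27.8, 33.2 and 27.5 CPM in the heat libraries, against 6.84, 7.7 and 8.17 CPM at 28 °C (log2 fold change 1.96 ± 0.12), and the F-box gene Os11g0202300 had 4.01, 6.49 and 3.88 CPM in the heat libraries, against 113, 101 and 106 CPM at 28 °C (log2 fold change -4.49 ± 0.16). Neither overlapped. Of U-box ubiquitin ligase genes, 19 rose and 14 fell of 57 tested and 70 listed (median 0.16), and Os06g0159600 rose, with 31.9 ± 3.48 CPM under heat and 7.62 ± 1.29 CPM at 28 °C (SD, n = 3 each). Of ubiquitin-conjugating enzymes, 13 rose and 17 fell of 42 tested and 53 listed (median -0.10, but 0.20 with 16 rises and 13 falls when scaled to total counts). Of the proteases, the serine carboxypeptidases mostly fell. Of serine carboxypeptidases, 6 rose and 25 fell of 42 tested and 60 listed (median -0.71). Among them Os01g0332800 had 1.38, 1.5 and 1.47 CPM in the heat libraries, against 248, 203 and 180 CPM at 28 °C (log2 fold change -7.18 ± 0.15, adjusted p = 1.45e-17), with no overlap. Of papain-type cysteine proteases, 6 rose and 11 fell of 21 tested and 35 listed (median -0.22, but 0.08 when scaled to total counts), and of subtilases, 13 rose and 15 fell of 36 tested and 79 listed (median -0.07, but 0.23 with 16 rises and 11 falls when scaled to total counts). Against 38.1% rising and 36.8% falling over all tested genes, F-box genes stood at 50.7% and 22.8%. U-box genes, at 33.3% and 24.6%, were called less often in both directions. Ubiquitin-conjugating enzymes, at 31% and 40.5%, and subtilases, at 36.1% and 41.7%, lay nearer those shares.

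Among regulators, the heat stress transcription factors themselves were split after 20 h. Of these factors, 9 rose and 10 fell of 22 tested and 27 listed (median -0.37, with 9 rises and 7 falls when scaled to total counts). The shares, 40.9% rising and 45.5% falling, lay near the 38.1% and 36.8% over all tested genes. Os09g0526600 was among the rises, with 61.9, 51.8 and 52.3 CPM in the heat libraries, against 11.7, 12.5 and 12.9 CPM at 28 °C (log2 fold change 2.16 ± 0.11, adjusted p = 1.62e-12). NAC factors, known in stress and leaf ageing, gave 27 rises and 21 falls in 68 tested of 101 listed (median 0.23). Among the 58 past the filter at both temperatures, 21 rose and 20 fell (median 0.02). Os11g0126900 had 106, 137 and 105 CPM in the heat libraries, against 1.31, 1.04 and 0.868 CPM at 28 °C (log2 fold change 6.75 ± 0.17, adjusted p = 5.88e-17), and Os12g0123700 averaged 171 ± 21 CPM under heat and 1.77 ± 0.574 CPM at 28 °C (SD, n = 3 each). These are again on the similar ends of chromosomes 11 and 12, so their separate levels are uncertain. Os01g0862800, also a NAC gene, had 0.777, 1.12 and 0.629 CPM in the heat libraries, against 32.3, 34.9 and 40.3 CPM at 28 °C (log2 fold change -5.42 ± 0.25) and did not overlap.

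Several large factor families fell more often than they rose. WRKY factors, best known from defence, gave 14 rises and 33 falls in 66 tested of 81 listed (median -0.82). Without 28 °C library 1 the WRKY factors gave 15 rises and 28 falls, with a median of -0.56. AP2/ERF factors, which include ethylene- and drought-responsive regulators, gave 21 rises and 42 falls in 93 tested of 138 listed (median -0.57). Without 28 °C library 1 the AP2/ERF factors gave 21 rises and 39 falls, with a median of -0.58. The AP2/ERF family was uneven at 28 °C: of 52 AP2/ERF genes with an average log2 CPM of 3 or more, 9 differed at least 3-fold among the 28 °C libraries, all highest in library 1, against 1 among the heat libraries. Of 30 WRKY genes at that level 1 did so at 28 °C and none under heat. Over all 15298 genes at that level the shares were 0.353% within heat and 0.915% within 28 °C, and library 1 was the highest in 114 of the 140 genes so spread at 28 °C. The AP2 gene Os05g0497200 was one of them, with 3.71, 5.55 and 2.67 CPM in the heat libraries, against 110, 72 and 19.7 CPM at 28 °C (log2 fold change -4.09 ± 0.87, adjusted p = 0.00232). The WRKY gene Os08g0386200 was less spread, with 3.95, 6.68 and 6.19 CPM in the heat libraries, against 87.4, 48.1 and 30.4 CPM at 28 °C (log2 fold change -3.30 ± 0.60, adjusted p = 0.000903). The heat libraries of both lay below all 28 °C libraries. In the other direction went the WRKY gene Os09g0417800, with 85.1 ± 6.67 CPM under heat and 11.5 ± 4.23 CPM at 28 °C (SD, n = 3 each), and the AP2 gene Os04g0398000, with 69.8 ± 10.4 CPM under heat and 11.5 ± 2.18 CPM at 28 °C (SD, n = 3 each).

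The bZIP factors, a class that includes regulators of abscisic acid responses and protein folding stress, gave 29 rises and 24 falls in 70 tested of 77 listed (median 0.16). Their shares, 41.4% rising and 34.3% falling, lay near those over all tested genes. The 63 past the filter at both temperatures gave 25 rises and 23 falls (median 0.07). Os06g0662200 had 686, 604 and 660 CPM in the heat libraries, against 13.5, 16.8 and 19.6 CPM at 28 °C (log2 fold change 5.29 ± 0.12, adjusted p = 2.87e-17), which made up 20% of the summed CPM of all bZIP genes under heat and 0.844% at 28 °C. Os12g0601800 fell, with 5.08, 5.8 and 5.56 CPM in the heat libraries, against 113, 110 and 126 CPM at 28 °C (log2 fold change -4.40 ± 0.09). In both, heat and 28 °C libraries were well apart. MYB-domain genes gave 53 rises and 61 falls in 161 tested of 210 listed (median -0.11, but 0.18 with 68 rises and 50 falls when scaled to total counts). Os04g0583900, one of them, rose, with 74.4 ± 8.66 CPM under heat and 4.47 ± 1.25 CPM at 28 °C (SD, n = 3 each).

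Falls prevailed among the bHLH factors, with 16 rises and 39 falls in 72 tested of 109 listed (median -0.42). Os10g0556200 had 19.4, 21 and 17.8 CPM in the heat libraries, against 497, 426 and 447 CPM at 28 °C (log2 fold change -4.56 ± 0.10, adjusted p = 7.25e-18), and Os02g0805250 went up, with 97.4 ± 3.13 CPM under heat and 13 ± 1.01 CPM at 28 °C (SD, n = 3 each). Homeobox factors gave 10 rises and 36 falls in 58 tested of 84 listed (median -0.82). Of the KNOX homeobox genes, which keep shoot meristems undetermined, 5 of 6 tested fell and none of them rose (12 listed, median -1.43). Os06g0646600, a KNOX gene, had 81.1, 76 and 77 CPM in the heat libraries, against 479, 435 and 482 CPM at 28 °C (log2 fold change -2.57 ± 0.07), with no overlap. The CCT-motif and B-box genes, many of which tie growth and flowering to light and day length, gave 10 rises and 16 falls in 34 tested of 42 listed (median -0.28, but 0.02 when scaled to total counts). Os07g0695100, with a response regulator receiver domain and a CCT motif, had 3.17, 2.75 and 3.72 CPM in the heat libraries, against 132, 136 and 132 CPM at 28 °C (log2 fold change -5.36 ± 0.11, adjusted p = 2.41e-18), and the NF-Y-type gene Os03g0251350 averaged 8.68 ± 2.12 CPM under heat and 386 ± 34.9 CPM at 28 °C (SD, n = 3 each). TCP factors gave 4 rises and 10 falls in 16 tested of 27 listed (median -0.65), MADS-box factors 5 rises and 10 falls in 23 tested of 53 listed (median -0.55, with 8 rises and 8 falls when scaled to total counts), GRAS factors 15 rises and 15 falls in 39 tested of 66 listed (median 0.03) and 12 rises and 15 falls among the 35 past the filter at both temperatures, TIFY repressors of jasmonate responses 3 rises and 3 falls in 13 tested of 15 listed (median 0.12), with no fall left without 28 °C library 2, GATA factors 6 rises and 10 falls in 20 tested of 31 listed (median -0.15, but 0.15 with 10 rises and 8 falls when scaled to total counts) and NF-Y factors 9 rises and 13 falls in 30 tested of 36 listed (median -0.12, but 0.17 with 11 rises and 8 falls when scaled to total counts).

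In most lists of RNA-binding genes rises outnumbered falls. Pentatricopeptide repeat (PPR) proteins, which bind and process single organelle transcripts, were the clearest case: 240 of 323 tested members rose, 31 fell and 52 were not called, out of 371 listed, with a median log2 fold change of 1.17. Of their DYW-type members, which edit organelle RNA, 61 rose and 10 fell of 87 tested and 111 listed (median 1.42). Of the 67 DYW-type genes past the filter at both temperatures, 43 rose and 10 fell (median 1.09). Os03g0712900, a PPR gene, had 29.7, 30 and 28.6 CPM in the heat libraries, against 4.08, 4.31 and 3.61 CPM at 28 °C (log2 fold change 2.87 ± 0.13), and the DYW-type gene Os07g0578800 had 21.5, 22 and 20.8 CPM in the heat libraries, against 2.04, 3.2 and 2.46 CPM at 28 °C (log2 fold change 3.05 ± 0.16). One PPR gene was a clear exception: Os02g0170000 had 8.85, 12 and 9.13 CPM in the heat libraries, against 177, 177 and 158 CPM at 28 °C (log2 fold change -4.09 ± 0.11, adjusted p = 6.68e-17). The heat and 28 °C libraries of all 3 genes were apart.

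DEAD-box helicases, which unwind RNA, gave 52 rises and 9 falls in 77 tested of 85 listed (median 0.70), and Os10g0485600, which also has a ribonuclease III domain, rose, with 22.9 ± 3.03 CPM under heat and 2.73 ± 0.68 CPM at 28 °C (SD, n = 3 each). RRM proteins gave 127 rises and 37 falls in 199 tested of 235 listed (median 0.46). The RRM gene Os05g0223200 had 74.8, 72.1 and 72.5 CPM in the heat libraries, against 1.75, 2.15 and 2.53 CPM at 28 °C (log2 fold change 5.09 ± 0.17, adjusted p = 1.17e-15), while Os08g0126700 had 35.5, 39.6 and 33.6 CPM in the heat libraries, against 603, 538 and 489 CPM at 28 °C (log2 fold change -3.91 ± 0.09, adjusted p = 2.57e-17). Neither overlapped. Of the mTERF genes, regulators of organelle gene expression, 20 rose and 8 fell of 32 tested and 35 listed (median 0.84), but their summed CPM was lower in every heat library: 446, 445 and 438 CPM under heat, against 788, 710 and 683 CPM at 28 °C. Os03g0785200, one of the falls, had 6.76, 7.8 and 7.76 CPM in the heat libraries, against 159, 132 and 119 CPM at 28 °C (log2 fold change -4.20 ± 0.13). The tRNA synthetases gave 22 rises and 23 falls in 54 tested of 65 listed (median 0.07, with 28 rises and 17 falls when scaled to total counts).

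Chromosome and cell division genes mostly fell. Histones gave 7 rises and 26 falls in 38 tested of 55 listed (median -1.40). Os05g0113900, a core histone of the H2A type, had 3.41, 1.12 and 2.73 CPM in the heat libraries, against 82.4, 59.1 and 47.3 CPM at 28 °C (log2 fold change -4.68 ± 0.36, adjusted p = 1.94e-06), and the linker histone Os01g0589300 rose, with 83.8, 85.5 and 84.6 CPM in the heat libraries, against 44.1, 42 and 38.8 CPM at 28 °C (log2 fold change 1.02 ± 0.07). The groups of both were separate. Of the MCM genes, which license DNA for replication, 3 rose and 6 fell of 10 tested and 13 listed (median -1.99). Os05g0476200 had 1.61, 2.25 and 2.57 CPM in the heat libraries, against 15.9, 13 and 10.6 CPM at 28 °C (log2 fold change -2.61 ± 0.21, adjusted p = 1.09e-09), and Os11g0484300, of the MCM2 type, averaged 3.17 ± 0.307 CPM under heat and 14.9 ± 2.91 CPM at 28 °C (SD, n = 3 each). Os05g0464150, a low-level member, averaged 4 ± 1.22 CPM under heat and 0.636 ± 0.265 CPM at 28 °C (SD, n = 3 each) and rose. Kinesins, motors that include those of the spindle, gave 10 rises and 25 falls in 45 tested of 46 listed (median -0.61). Os12g0590500 fell, with 2.11 ± 0.85 CPM under heat and 18.6 ± 3.55 CPM at 28 °C, and Os03g0152900 rose, with 26.9 ± 2.19 CPM under heat and 2.09 ± 0.318 CPM at 28 °C (SD, n = 3 each). Cyclins gave 10 rises and 13 falls in 32 tested of 49 listed (median -0.19, but 0.10 with 13 rises and 11 falls when scaled to total counts).

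**Figure D3:**
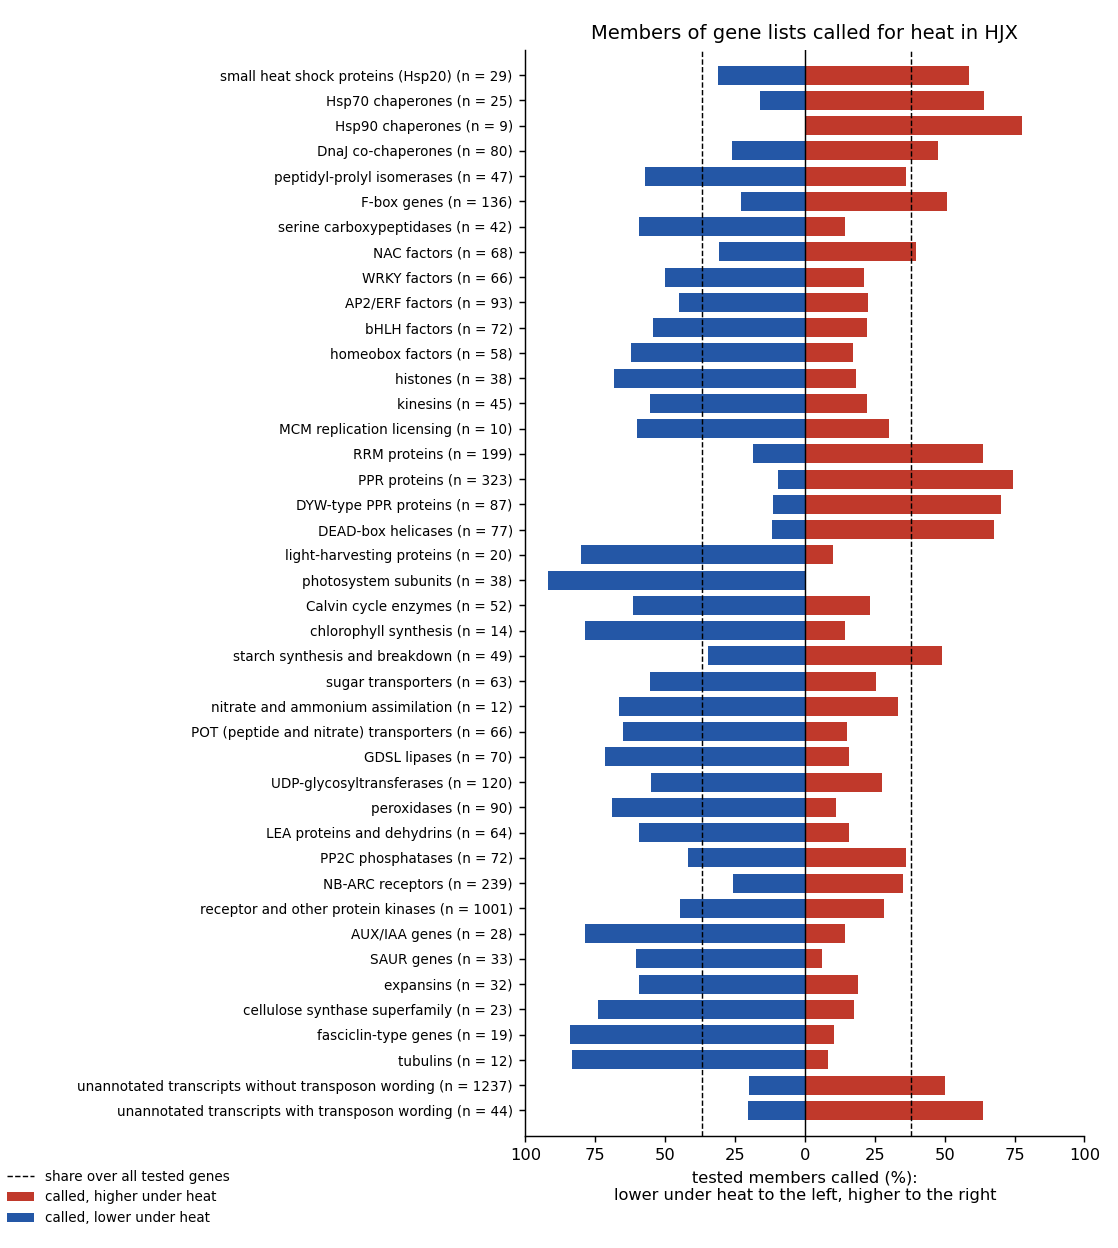
Share of tested members of 42 gene lists called higher (red, right) or lower (blue, left) under heat in HJX, in percent, with the number of tested members n beside each name and dashed lines at the shares over all tested genes, 38.1% up and 36.8% down. Photosystem subunits show no rise, and PPR proteins, RRM proteins and DEAD-box helicases reach well past the dashed line on the right.

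Nearly all genes of the light reactions fell. Of the light-harvesting proteins, 2 rose and 16 fell of 20 tested and 22 listed (median -4.48). Without its top gene Os09g0346500, the light-harvesting sum was 1522 to 2486 CPM under heat, against 64328 to 80664 CPM at 28 °C. The list's rises were small: Os04g0690800 had 11.3, 10.9 and 9.34 CPM in the heat libraries, against 7.14, 7.44 and 4.84 CPM at 28 °C (log2 fold change 0.69 ± 0.16), and the count of rises was 1 on leaving out any of 4 of the 6 libraries (heat library 1 or 3, 28 °C library 1 or 3). Photosystem subunits gave 0 rises and 35 falls in 38 tested of 42 listed (median -2.55). Os05g0508900, the PsbW protein of photosystem II, had 2.03, 1.75 and 2.41 CPM in the heat libraries, against 135, 119 and 109 CPM at 28 °C (log2 fold change -5.86 ± 0.12, adjusted p = 3.83e-18), a fall with no overlap. All 5 tested Rubisco small subunit genes fell (6 listed, median -4.26). Chlorophyll synthesis genes gave 2 rises and 11 falls in 14 tested of 16 listed (median -1.45).

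Carbon fixation fell less evenly. Calvin cycle enzymes gave 12 rises and 32 falls in 52 tested of 67 listed (median -0.73). Os05g0438600, a fructose-1,6-bisphosphatase, was a marked exception, with 528, 513 and 491 CPM in the heat libraries, against 36.3, 39.6 and 41.3 CPM at 28 °C (log2 fold change 3.71 ± 0.10, adjusted p = 6.48e-17), each heat library above all 28 °C libraries. Chlorophyll breakdown held opposite moves in a single family: the staygreen gene Os09g0532000 had 32.7, 38.8 and 42.6 CPM in the heat libraries, against 19.4, 22.4 and 12.4 CPM at 28 °C (log2 fold change 1.07 ± 0.21), and the staygreen gene Os04g0692600 had 15.5, 19.2 and 17.5 CPM in the heat libraries, against 272, 263 and 233 CPM at 28 °C (log2 fold change -3.88 ± 0.10). Neither staygreen gene overlapped between the temperatures. Staygreen proteins in rice open the chlorophyll molecule's breakdown by removing its magnesium.

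Sugar and starch genes went both ways. Starch synthesis and breakdown genes gave 24 rises and 17 falls in 49 tested of 65 listed (median 0.21). Among the 42 past the filter at both temperatures, 18 rose and 16 fell (median -0.01). Of the 10 listed alpha-amylases 5 were tested, and 3 of these passed the filter through the heat libraries alone. The beta-amylase type gene Os10g0565150 (glycosyl hydrolase family 14) had 612, 578 and 517 CPM in the heat libraries, against 114, 112 and 136 CPM at 28 °C (log2 fold change 2.24 ± 0.15, adjusted p = 1.22e-08), and its groups were apart. Sucrose synthesis and cleavage genes gave 11 rises and 17 falls in 32 tested of 52 listed (median -0.31, with 13 rises and 13 falls when scaled to total counts), among which the alkaline and neutral invertase Os02g0550600 rose, with 383 ± 13.4 CPM under heat and 73.5 ± 7.2 CPM at 28 °C (SD, n = 3 each). Trehalose enzymes gave 5 rises and 10 falls in 18 tested of 23 listed (median -0.52, with 8 rises and 8 falls when scaled to total counts). Among them Os10g0553300, a trehalose-phosphatase, had 128, 116 and 124 CPM in the heat libraries, against 4.44, 4.96 and 4.27 CPM at 28 °C (log2 fold change 4.75 ± 0.18, adjusted p = 2.16e-11), with a low and even 28 °C level. Of 7 tested raffinose synthase type genes, 4 rose and 3 fell (13 listed, median 0.48). Raffinose is a sugar that plants store under stress. Os06g0172800 had 465, 414 and 408 CPM in the heat libraries, against 31.4, 34.9 and 40.8 CPM at 28 °C (log2 fold change 3.59 ± 0.14), and Os08g0495800 averaged 37.7 ± 4.68 CPM under heat and 5.39 ± 1.22 CPM at 28 °C (SD, n = 3 each).

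Glycolysis gave 20 rises and 23 falls in 57 tested of 73 listed (median -0.09, but 0.20 with 27 rises and 17 falls when scaled to total counts). Os05g0187100, a hexokinase gene, had 740, 755 and 725 CPM in the heat libraries, against 27.4, 37.2 and 38.1 CPM at 28 °C (log2 fold change 4.43 ± 0.12, adjusted p = 1.52e-15), with the groups far apart. The TCA cycle gave 12 rises and 10 falls in 28 tested of 33 listed (median 0.27) and mitochondrial carriers 29 rises and 17 falls in 58 tested of 60 listed (median 0.27). Of 5 alternative oxidase genes, whose enzymes let electrons bypass part of the respiratory chain, 3 rose and 1 fell (median 1.60), and Os04g0600200 averaged 115 ± 4.33 CPM under heat and 21.7 ± 2.1 CPM at 28 °C (SD, n = 3 each). SWEET sugar exporters gave 3 rises and 8 falls in 12 tested of 22 listed (median -0.89). The count of rises was 1 without heat library 1 and 1 without 28 °C library 1. Os02g0301100, a SWEET gene, was a rise, with 461, 405 and 429 CPM in the heat libraries, against 121, 115 and 96.7 CPM at 28 °C (log2 fold change 1.96 ± 0.09), and held 73.7% of the summed SWEET CPM under heat and 20.7% at 28 °C.

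In several families most members fell while the summed level was higher in every heat library, and a single member held much of that sum in most of them. Compared with total counts, the TMM factors (1.06 to 1.07 under heat, 0.843 to 0.89 at 28 °C) lower heat sums against those at 28 °C. Small gaps or overlaps between sums therefore depend on the scaling. LEA proteins and dehydrins gave 10 rises and 38 falls in 64 tested of 83 listed (median -1.18), yet their sum was 12256, 11723 and 11803 CPM under heat, against 4650, 4520 and 3857 CPM at 28 °C. The gain leader Os01g0256500 was 87.8% of the sum under heat and 37.2% at 28 °C. The rest of the list summed to 1421 to 1483 CPM under heat, against 2293 to 3031 CPM at 28 °C, and so was lower in every heat library. The dehydrin Os11g0454200 was among the falls, with 7.11, 6.68 and 4.46 CPM in the heat libraries, against 107, 96.2 and 73 CPM at 28 °C (log2 fold change -3.93 ± 0.24), and did not overlap.

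MATE and sugar transporters were similar cases. MATE transporters, which export organic compounds, gave 8 rises and 26 falls in 41 tested of 78 listed (median -0.81), with a sum of 1042, 1024 and 1027 CPM under heat, against 644, 689 and 645 CPM at 28 °C. Os05g0554000 had 491, 464 and 478 CPM in the heat libraries, against 29.4, 35.4 and 36.9 CPM at 28 °C (log2 fold change 3.82 ± 0.09, adjusted p = 3.49e-17), and the sum without it was 549 to 559 CPM under heat, against 608 to 653 CPM at 28 °C. This gap is small enough to depend on the scaling, as do the overlaps given below for sugar transporters and thaumatins. Sugar transporters gave 16 rises and 35 falls in 63 tested of 131 listed (median -0.96), and their sum was 3892, 3548 and 3443 CPM under heat, against 2262, 2282 and 2114 CPM at 28 °C. Os07g0559700, singled out after its values were seen as the most abundant member under heat, was 48.6% of the sum under heat and 16.5% at 28 °C, and the rest, at 1830 to 1918 CPM under heat, against 1761 to 1909 CPM at 28 °C, overlapped between the temperatures. Os04g0453200 was among the falls, with 1.42 ± 0.388 CPM under heat and 19.1 ± 3.4 CPM at 28 °C (SD, n = 3 each). Calcium transport genes, near the background in their share of falls, gave 13 rises and 18 falls in 49 tested of 61 listed (median -0.14, but 0.16 with 20 rises and 15 falls when scaled to total counts), and their sum was 3926, 3711 and 3673 CPM under heat, against 2800, 2960 and 2782 CPM at 28 °C. The mitochondrial calcium uniporter type gene Os10g0501500 had 2077, 1893 and 1890 CPM in the heat libraries, against 325, 390 and 313 CPM at 28 °C (log2 fold change 2.51 ± 0.10, adjusted p = 2.29e-14), and the sum without it was 1783 to 1849 CPM under heat, against 2469 to 2570 CPM at 28 °C.

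Thaumatins, a family of defence proteins, gave 8 rises and 12 falls in 23 tested of 60 listed (median -0.49). Os03g0244200 had 721, 666 and 691 CPM in the heat libraries, against 54.5, 50.1 and 34.6 CPM at 28 °C (log2 fold change 3.90 ± 0.19, adjusted p = 7.50e-09), and without it the thaumatin sum was 846 to 987 CPM under heat, against 757 to 912 CPM at 28 °C, which overlapped. Chitinases, which attack fungal walls, gave 9 rises and 20 falls in 35 tested of 47 listed (median -0.73) and a sum of 3580, 3878 and 3582 CPM under heat, against 2212, 2712 and 2629 CPM at 28 °C. Here the sum without the top member was still higher in every heat library, at 1461 to 1644 CPM under heat, against 890 to 1151 CPM at 28 °C. Os05g0399300, a class I chitinase, had 51.5, 70.6 and 51.9 CPM in the heat libraries, against 2.33, 4.05 and 3.4 CPM at 28 °C (log2 fold change 4.14 ± 0.19, adjusted p = 1.54e-11), with no overlap. Bet v I type pathogenesis-related proteins gave 1 rise and 3 falls in 7 tested of 8 listed (median -0.18, but 0.12 with 2 rises and 2 falls when scaled to total counts).

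**Figure D4:**
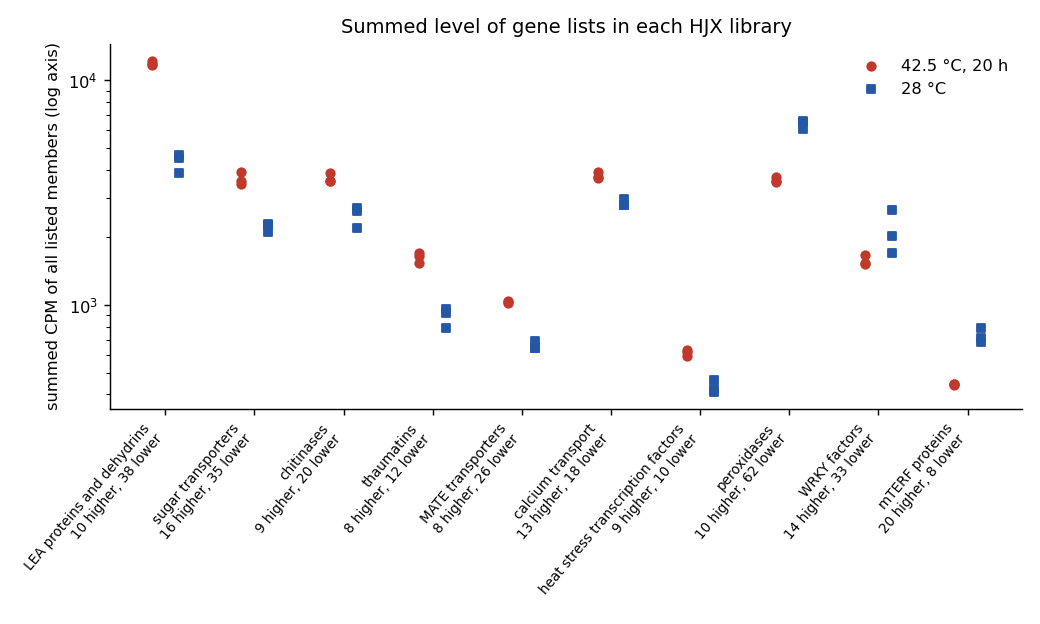
Summed CPM of all listed members of 10 gene lists in each HJX library on a log axis, heat libraries as red circles on the left and 28 °C libraries as blue squares on the right, with the number of members called higher and lower under each name. In the 6 leftmost lists the sum is higher in every heat library although more members fell than rose (for calcium transport not when scaled to total counts, with 20 rises and 15 falls), and for mTERF proteins the sum is lower under heat although 20 members rose and 8 fell.

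Nitrogen uptake and assimilation mostly fell. Nitrate and ammonium assimilation genes gave 4 rises and 8 falls in 12 tested of 16 listed (median -1.93). Os02g0770800, with the molybdenum cofactor and cytochrome b5 domains of nitrate reductase, had 1.26, 3.43 and 1.63 CPM in the heat libraries, against 103, 123 and 100 CPM at 28 °C (log2 fold change -5.71 ± 0.24, adjusted p = 2.83e-09), and Os08g0468100, with an oxidoreductase and a cytochrome b5 domain, had 10.3, 16.7 and 13.4 CPM in the heat libraries, against 287, 233 and 234 CPM at 28 °C (log2 fold change -4.22 ± 0.17). In both, every heat library lay below all 28 °C libraries. The glutamine synthetase Os03g0712800 rose, with 68.3, 51.8 and 53.8 CPM in the heat libraries, against 8.23, 8.94 and 5.93 CPM at 28 °C (log2 fold change 2.91 ± 0.25, adjusted p = 1.27e-06). POT transporters, which carry peptides or nitrate, gave 10 rises and 43 falls in 66 tested of 134 listed (median -1.09), and Os10g0554200 fell, with 9.79 ± 1.64 CPM under heat and 129 ± 11.4 CPM at 28 °C (SD, n = 3 each). Amino acid transporters gave 6 rises and 26 falls in 40 tested of 83 listed (median -0.99), and ammonium transporters 3 rises and 3 falls in 7 tested of 22 listed (median 0.15), of which 5 passed the filter at both temperatures, with 2 rises and 3 falls.

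Lipid and specialised metabolism was mostly lower. GDSL lipases gave 11 rises and 50 falls in 70 tested of 101 listed (median -1.21). Of the fatty acid elongation genes (KCS), which build the long chains of wax and cutin, 14 of 21 tested fell and none rose (32 listed, median -0.87). Fatty acid desaturases gave 4 rises and 10 falls in 17 tested of 26 listed (median -0.64) and terpene synthases 3 rises and 11 falls in 20 tested of 40 listed (median -1.79). Of the terpene synthases, 7 passed the filter through the 28 °C libraries alone. The 11 that passed at both temperatures gave 1 rise and 4 falls (median -0.25). UDP-glycosyltransferases, which attach sugars to small molecules, gave 33 rises and 66 falls in 120 tested of 204 listed (median -0.78). Os03g0841600, of that family, went up, with 14.5 ± 1.3 CPM under heat and 0.735 ± 0.278 CPM at 28 °C (SD, n = 3 each).

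Redox genes fell in most classes. Of the catalases and superoxide dismutases, 2 rose and 7 fell of 10 tested and 10 listed (median -0.93). The catalase Os02g0115700 had 243, 319 and 252 CPM in the heat libraries, against 3069, 3371 and 3291 CPM at 28 °C (log2 fold change -3.58 ± 0.13, adjusted p = 4.13e-15), and the catalase Os03g0131200 averaged 111 ± 15.5 CPM under heat and 1298 ± 227 CPM at 28 °C (SD, n = 3 each). The third catalase, Os06g0727200, had 368, 371 and 364 CPM in the heat libraries, against 179, 193 and 200 CPM at 28 °C (log2 fold change 0.95 ± 0.08), and with the copper/zinc superoxide dismutase Os07g0665200, at 267 ± 35.4 CPM under heat and 103 ± 13.7 CPM at 28 °C (SD, n = 3 each), made up the rises. Peroxidases mostly fell, with 10 rises and 62 falls in 90 tested of 165 listed (median -1.70). Os02g0240300, a peroxidase, had 0.538, 0.187 and 0.839 CPM in the heat libraries, against 58.9, 49.9 and 47.8 CPM at 28 °C (log2 fold change -6.58 ± 0.24), and Os05g0162000 rose, with 62.4, 64 and 65.9 CPM in the heat libraries, against 3.06, 5.03 and 5.42 CPM at 28 °C (log2 fold change 3.83 ± 0.15). Neither peroxidase overlapped. Glutaredoxins gave 5 rises and 13 falls in 27 tested of 43 listed (median -0.29, but 0.02 when scaled to total counts) and heavy-metal domain genes 10 rises and 25 falls in 46 tested of 53 listed (median -0.47). Of 4 tested metallothionein genes 1 rose and 2 fell (7 listed, median -0.46), scaled to total counts 1 rose and 1 fell, and with a replicate block, a model term for the replicate number of the 28 °C libraries, none rose and 2 fell.

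Other stress and signalling lists lay nearer the background. Universal stress proteins gave 9 rises and 7 falls in 25 tested of 33 listed (median 0.13), among which Os01g0511100 rose, with 211 ± 5.86 CPM under heat and 42.7 ± 0.946 CPM at 28 °C (SD, n = 3 each). PP2C phosphatases, several of which switch off abscisic acid signalling, gave 26 rises and 30 falls in 72 tested of 86 listed (median -0.22, but 0.08 with 33 rises and 18 falls when scaled to total counts). EF-hand genes, the calcium sensors, gave 21 rises and 39 falls in 85 tested of 125 listed (median -0.32, with 32 rises and 28 falls when scaled to total counts), and ABC transporters 46 rises and 48 falls in 117 tested of 155 listed (median -0.11, but 0.19 with 52 rises and 38 falls when scaled to total counts). Of NB-ARC receptors, intracellular immune receptors, 84 rose and 62 fell of 239 tested and 430 listed (median 0.16). Os10g0183000, one of them, had 15.8, 17.4 and 16 CPM in the heat libraries, against 1.89, 1.18 and 1.08 CPM at 28 °C (log2 fold change 3.57 ± 0.23, adjusted p = 2.66e-11).

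The balance of the large kinase list turned with the scaling: of receptor and other protein kinases, 283 rose and 448 fell of 1001 tested and 1628 listed (median -0.22, but 0.08 with 382 rises and 347 falls when scaled to total counts). The median over all tested genes moved from 0.03 to 0.32 with that scaling, so the kinase median lay below it under both. The neighbours Os07g0628700 (chromosome 7, 26052222 to 26055831, minus strand) and Os07g0628900 (chromosome 7, 26059428 to 26062993, minus strand) both carry a kinase and an extracellular salt stress or antifungal type domain. Os07g0628700 had 1.49, 0.998 and 1.36 CPM in the heat libraries, against 557, 475 and 464 CPM at 28 °C (log2 fold change -8.58 ± 0.23, adjusted p = 1.47e-12), and Os07g0628900 had 0.598, 0.624 and 0.682 CPM in the heat libraries, against 193, 166 and 169 CPM at 28 °C (log2 fold change -8.09 ± 0.14, adjusted p = 5.77e-19). Both were near silence in every heat library, and reads could be split between such close relatives. Os02g0120100, a tyrosine-type kinase, rose, with 74.3, 95.5 and 68.2 CPM in the heat libraries, against 5.02, 5.35 and 4.12 CPM at 28 °C (log2 fold change 4.03 ± 0.14).

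Lists of auxin-responsive genes mostly fell. AUX/IAA genes, which repress auxin responses and are themselves induced by auxin, gave 4 rises and 22 falls in 28 tested of 32 listed (median -1.25). Os05g0230700 had 82, 102 and 74.1 CPM in the heat libraries, against 678, 656 and 717 CPM at 28 °C (log2 fold change -2.99 ± 0.10, adjusted p = 2.11e-15), with every heat library below 28 °C. SAUR genes, early auxin targets linked to cell expansion, gave 2 rises and 20 falls in 33 tested of 50 listed (median -1.03), and 5 rises and 21 falls with the replicate block at 28 °C. Auxin response factors gave 7 rises and 10 falls in 22 tested of 23 listed (median -0.23, but 0.07 with 9 rises and 9 falls when scaled to total counts). Of 11 tested GH3 genes, whose enzymes conjugate hormones to amino acids, 3 rose and 2 fell (25 listed, median 0.19), or 5 and 2 with the block, and Os01g0221100 rose, with 169, 192 and 155 CPM in the heat libraries, against 55.3, 63.3 and 75.8 CPM at 28 °C (log2 fold change 1.41 ± 0.10).

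Among other hormone lists, 6 of 7 EIN3 factors of the ethylene pathway rose (7 listed, median 0.44), of which 3 passed the filter through the heat libraries alone. The one that fell, Os07g0685700, had 365, 322 and 326 CPM in the heat libraries, against 606, 567 and 503 CPM at 28 °C (log2 fold change -0.73 ± 0.10, adjusted p = 4.20e-06) and held 44.6% of the family's CPM under heat and 62.6% at 28 °C. Lipoxygenases, which include the first enzyme of jasmonate synthesis, gave 4 rises and 7 falls in 12 tested of 24 listed (median -1.11). Os02g0194700 had 2.81, 4.24 and 2.36 CPM in the heat libraries, against 288, 243 and 190 CPM at 28 °C (log2 fold change -6.27 ± 0.26, adjusted p = 4.19e-09), and Os03g0700700 had 261, 261 and 246 CPM in the heat libraries, against 23.7, 30.6 and 24.1 CPM at 28 °C (log2 fold change 3.29 ± 0.09, adjusted p = 2.09e-16), 55.4% of the lipoxygenase CPM under heat and 4.05% at 28 °C. The 2 genes moved in opposite directions with no overlap. Of 8 tested genes of the carotenoid cleavage type (RPE65), 1 rose and 6 fell (18 listed, median -2.09), with Os02g0704000 at 1.94 ± 0.85 CPM under heat and 78.9 ± 14.2 CPM at 28 °C (SD, n = 3 each). Cytokinin dehydrogenases gave 2 rises and 3 falls in 7 tested of 11 listed (median -0.40), or 2 of each among the 6 past the filter at both temperatures. Type A and B response regulators of cytokinin signalling gave 6 rises and 9 falls in 19 tested of 32 listed (median -0.26, but 0.04 with 6 rises and 6 falls when scaled to total counts).

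In each cell wall list more members fell than rose. The cellulose synthase superfamily gave 4 rises and 17 falls in 23 tested of 38 listed (median -0.77), pectin enzymes 10 rises and 34 falls in 58 tested of 131 listed (median -0.69) and fasciclin-type genes 2 rises and 16 falls in 19 tested of 26 listed (median -1.57). Of expansins, which loosen walls in growing cells, 6 rose and 19 fell of 32 tested and 106 listed (median -1.51), and Os10g0555900 had 9.09, 13.5 and 7.5 CPM in the heat libraries, against 121, 126 and 139 CPM at 28 °C (log2 fold change -3.69 ± 0.23, adjusted p = 1.96e-07). Of xyloglucan endotransglycosylases, which cut and rejoin wall polymers, 3 rose and 14 fell of 18 tested and 26 listed (median -1.46), and Os11g0539200 averaged 1.31 ± 0.38 CPM under heat and 28.6 ± 10.9 CPM at 28 °C (SD, n = 3 each). Os03g0128000, a fasciclin-type gene, had 24, 32.3 and 25.9 CPM in the heat libraries, against 216, 252 and 271 CPM at 28 °C (log2 fold change -3.17 ± 0.11). Tubulins gave 1 rise and 10 falls in 12 tested of 19 listed (median -1.12), with Os01g0805900 at 97.6 ± 10.2 CPM under heat and 451 ± 15.8 CPM at 28 °C (SD, n = 3 each). None of these 4 genes overlapped, as the choice of list members required.

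Markers of other tissues and compartments were read beside these lists. The silicon transporter LSI1 (Os02g0745100), a root marker, had 60, 28 and 68 reads in the heat libraries, against 186, 159 and 97 at 28 °C. At a mean of 2.97 CPM under heat and 10.3 CPM at 28 °C it was called as a fall (log2 fold change -1.78, adjusted p = 7.59e-06), with no overlap in reads. LSI2 (Os03g0107300) had 6 reads under heat and 1 at 28 °C, and RCc3 (Os02g0662000) had none under heat and 19 at 28 °C, and neither of these root markers was tested. Cupins, a family that includes seed storage globulins, gave 7 rises and 18 falls in 26 tested of 64 listed (median -1.28). Os08g0189200, a cupin, had 366, 504 and 303 CPM in the heat libraries, against 14, 24.7 and 26 CPM at 28 °C (log2 fold change 4.18 ± 0.34, adjusted p = 3.39e-06), and was 48.4% of the cupin CPM under heat and 0.835% at 28 °C. Its heat libraries differed widely among themselves but lay above 28 °C.

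Few organelle-encoded genes passed the filter. Of 96 mitochondrially encoded genes listed 9 were tested, and 8 of these passed through the heat libraries alone, so that their rises were favoured by the filter. The one that passed at both temperatures, the transcript with ID EPlORYSAT000373608, had 15.4, 11.9 and 20.1 CPM in the heat libraries, against 1.82, 2.15 and 2.24 CPM at 28 °C (log2 fold change 2.93 ± 0.22, adjusted p = 3.65e-10), with every heat library above 28 °C. Of 127 plastid-encoded genes listed 7 were tested, 3 of which passed at both temperatures and fell. Among the called falls gene-psaC averaged 2.07 ± 0.904 CPM under heat and 19.3 ± 3.81 CPM at 28 °C (SD, n = 3 each). Annotated ribosomal RNA was 0.0835% to 0.107% of reads under heat and 0.145% to 0.181% at 28 °C.

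Transcripts marked as unannotated took 2.26% to 2.35% of reads in the heat libraries and 0.597% to 0.694% at 28 °C. Those without transposon wording in their description gave 621 rises and 250 falls in 1237 tested of 1649 listed (median 0.67), and those with it 28 rises and 9 falls in 44 tested of 47 listed (median 1.09). Of those without the wording 373 passed the filter through the heat libraries alone, and the 786 that passed at both temperatures gave 330 rises and 190 falls (median 0.26). The transcript at chromosome 6, 9893367 to 9901084, minus strand, described with a GAG-pre-integrase domain as found in retrotransposons, had 806, 741 and 749 CPM in the heat libraries, against 0.51, 2.22 and 1.23 CPM at 28 °C (log2 fold change 9.14 ± 0.28, adjusted p = 1.43e-10). It held 39.8% of its list's CPM under heat and 0.204% at 28 °C. The transcript at chromosome 1, 15878109 to 15881101, minus strand, had 646, 630 and 626 CPM in the heat libraries, against 0.655, 0.522 and 1.16 CPM at 28 °C (log2 fold change 9.67 ± 0.18, adjusted p = 1.04e-17), and that at chromosome 2, 9894262 to 9897689, minus strand, had 47.9, 55.8 and 45.3 CPM in the heat libraries, against 0.0728, 0 and 0 CPM at 28 °C (log2 fold change 10.64 ± 0.41). None of these 3 transcripts overlapped between the temperatures. That on chromosome 2 lay below the level of 3 reads at 28 °C (0.196 to 0.218 CPM), so the filter may have picked it for its level under heat. The size of its fold change rests on almost no reads at 28 °C and is less certain than the SE conveys. Loci that the table marks as nontranslating gave 205 rises and 194 falls in 607 tested of 2185 listed (median 0.11), but 143 rises and 158 falls among the 457 past the filter at both temperatures (median -0.07). Strand is not stated for the counting, so reads of such a transcript and of a gene opposite to it cannot be told apart.

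The heat response of HJX was then set against that of HPS32 as a difference of the log2 fold changes, HJX minus HPS32, in the same model. The comparison of each line has its own 28 °C libraries. In HPS32, 17925 genes were called (70.4%): 8653 genes rose (34%) and 9272 fell (36.4%). Of the genes called in HJX, 14850 were called in the same direction in HPS32, which is 77.8% of the HJX calls and 82.8% of the HPS32 calls, and 521 were called in opposite directions. Of those 521, 419 rose in HJX and fell in HPS32, and 102 did the reverse. The TMM factors of the heat libraries were 1.26 to 1.28 in HPS32, against 1.06 to 1.07 in HJX. Opposite calls can depend on the scaling, and this split is given for TMM only. The difference itself was called in 7473 genes (29.3%), positive in 4080 (16%) and negative in 3393 (13.3%). This majority of positive differences depended on the scaling. With RLE scaling the split was 3609 positive and 3782 negative and with DESeq2 it was 3622 positive and 3715 negative. Scaled to total counts it was 1900 positive and 6581 negative, and that scaling moved the median difference of all genes to -0.28.

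Where a rise in HJX came with a called difference, it was larger than in HPS32 in 2844 genes and smaller in 370. Falls with a called difference were deeper than in HPS32 in 2629 genes and shallower in 641. Scaled to total counts, rises were larger in 1625 and smaller in 1584, so that their balance did not hold, while falls were deeper in 3742 and shallower in 129. All these genes were picked by a heat call in HJX, and the difference uses the same HJX values. Such a choice favours larger responses in HJX, so these counts cannot show which line responded more.

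The 6 largest positive differences, among genes with a description called for heat in HJX at an average log2 CPM of 3 or more, included several genes described above. The cupin Os08g0189200 rose by 4.18 ± 0.34 in HJX, against -0.12 ± 0.33 in HPS32 (difference 4.30 ± 0.46, adjusted p = 0.0002). Os07g0179700, a neprosin-domain gene, gave 9.53 ± 0.33 in HJX and 5.69 ± 0.33 in HPS32 (difference 3.84 ± 0.89, adjusted p = 0.00688). Os11g0127600, a NAC gene near Os11g0126900, gave 5.32 ± 0.30 in HJX and 1.65 ± 0.31 in HPS32. The RRM gene Os05g0223200 gave 5.09 ± 0.17 in HJX and 1.47 ± 0.19 in HPS32 (difference 3.62 ± 0.27, adjusted p = 1.47e-08). Os05g0208550, a 2-oxoglutarate and iron dependent oxygenase gene, had 60.3, 67.3 and 48.4 CPM in the heat libraries, against 3.71, 3.98 and 2.96 CPM at 28 °C, a log2 fold change of 4.04 ± 0.16 in HJX against 0.43 ± 0.17 in HPS32. The trehalose-phosphatase Os10g0553300 gave 4.75 ± 0.18 in HJX and 1.14 ± 0.19 in HPS32 (difference 3.60 ± 0.27, adjusted p = 6.47e-07).

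At the other end, Os08g0140300, a pyridoxal-dependent decarboxylase, rose less in HJX, by 3.53 ± 0.22, than in HPS32, by 6.78 ± 0.26 (difference -3.25 ± 0.43, adjusted p = 1.92e-05). Deeper falls in HJX were those of the nitrate reductase type gene Os02g0770800 (-5.71 ± 0.24 in HJX and -2.93 ± 0.19 in HPS32), the HMG-box gene Os02g0258200 (-6.20 ± 0.47 and -3.42 ± 0.36, in the same order) and the cytochrome P450 Os11g0635500 (-5.65 ± 0.45 and -3.09 ± 0.35). The kinase Os07g0628900 (-8.09 ± 0.14 in HJX and -5.64 ± 0.11 in HPS32) and Os01g0123700, of the SINA family of ubiquitin ligases (-6.18 ± 0.34 and -3.90 ± 0.25), completed the 6 most negative differences by the same rule.

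Several changes of HJX were small or of the other sign in HPS32. Os05g0438600, the fructose-1,6-bisphosphatase, gave 3.71 ± 0.10 in HJX and 0.41 ± 0.09 in HPS32 (difference 3.30 ± 0.13, adjusted p = 9.37e-12). The beta-amylase type Os10g0565150 gave 2.24 ± 0.15 in HJX and 0.16 ± 0.14 in HPS32 (difference 2.08 ± 0.20, adjusted p = 1.01e-05). Os08g0495800, of the raffinose synthase type, gave 2.81 ± 0.23 in HJX and 0.00 ± 0.25 in HPS32 (difference 2.80 ± 0.34, adjusted p = 4.89e-05). The GH3 gene Os01g0221100 had opposite signs, 1.41 ± 0.10 in HJX and -0.47 ± 0.10 in HPS32 (difference 1.88 ± 0.14, adjusted p = 3.06e-08). The MCM genes Os05g0476200 and Os11g0484300 fell by 1.89 and 1.85 more in HJX on the log2 scale.

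Of the 562 genes called for heat in HJX at a log2 fold change of at least 5 in either direction, 413 had no called difference. One was the unannotated transcript on chromosome 1 that starts at 15878109, which gave 9.67 ± 0.18 in HJX and 9.68 ± 0.19 in HPS32 (difference -0.01 ± 0.21, adjusted p = 0.984). Of smaller responses, the Hsp70 gene Os11g0703900 gave 1.44 ± 0.10 in HJX and 1.42 ± 0.10 in HPS32 (difference 0.02 ± 0.13, adjusted p = 0.942). The kinesin Os03g0152900 and the UDP-glycosyltransferase Os03g0841600 had differences of 0.15 and -0.23, and the KNOX gene Os06g0646600 one of 0.18. A p above the threshold does not show that the lines responded alike.

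**Figure D5:**
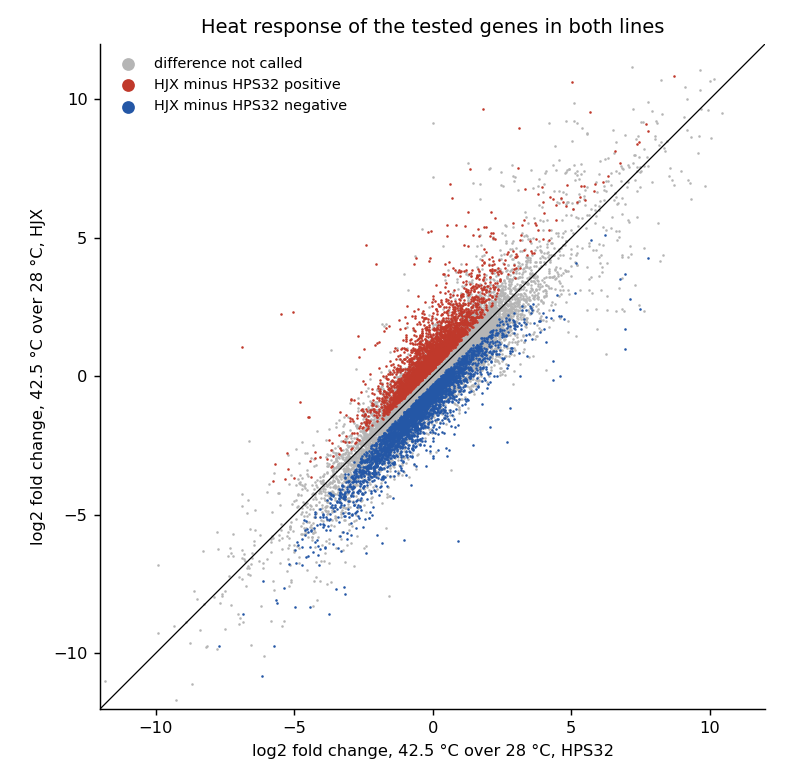
The log2 fold change of heat over 28 °C in HJX (vertical axis) against that in HPS32 (horizontal axis), 1 point per tested gene, with genes of a called difference in red (positive, 4080 genes) or blue (negative, 3393 genes), other genes in grey and a line where both responses are equal. Most points follow the line, and red points lie above it and blue points below.

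The authors' deposited table gave 18142 genes at an adjusted p below 0.05 for HJX heat against 28 °C, 9010 up and 9132 down. Of these, 17506 were called here in the same direction, 96.5% of the calls in the authors' deposited table and 91.8% of those here, and none were called in opposite directions.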

How the data were processed

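Aerial organs of rice seedlings were profiled by RNA sequencing of total RNA, with the RNeasy Plant Mini and TruSeq RNA kits per the labels. The authors deposited raw read counts per gene. HISAT2 2.0.5 and featureCounts 1.5.0-p3 are named per the submitters' processing notes, as is DESeq2 1.20.0. The log2 fold changes and adjusted p-values of the authors' deposited table were compared with those computed here. The genome build is not given in the sources used here, and coordinates are those of the deposited table. The 12 FPKM columns were not used. The numbers in the names of the heat columns cannot be tied to the replicate numbers of the titles and only name the libraries. The 28 °C libraries carry the titles' numbers. Deviations of log2 CPM from the group means of HJX and HPS32 correlated at 0.43, 0.11 and 0.41 between libraries of the same number and at -0.44 to 0.08 otherwise, so the numbers were taken as pairing these libraries. The pair at 0.11 lay close to the 0.08 of libraries of unlike number, and the pairing was read from the data to which the block was fitted. A replicate block could be fitted at 28 °C only.

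In R 4.3.3, edgeR 4.0.16 was fitted to all 12 libraries (filterByExpr on the 4 groups, TMM, robust quasi-likelihood F test, two-sided), with a Benjamini-Hochberg threshold of 0.05 over all tested genes. The SE is the log2 fold change divided by the square root of F, which is rough for genes with almost no reads in a group. Levels are CPM with TMM factors. Counts were simulated with 3 libraries a group, with 100 genes changed 2-fold in HJX heat, 100 changed 4-fold and 24667 unchanged. There 74% of 2-fold and 97% of 4-fold changes were recovered, and 0.0527% of unchanged genes were called. With 74.9% of genes called in the data, the setting differs and these rates need not hold there.

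The 106 gene lists were defined from the domain wording of the table or from the chromosome. Members and lists were chosen with earlier results of these data known. Genes named are among genes with a description the 10 largest gains and losses in CPM and the 6 largest differences of each sign among heat-called genes at an average log2 CPM of 3 or more, and from each list up to 2 called members of the majority direction and 1 of the other, at that level with no overlap. Members of lists of 10 or fewer could all be named, and not every eligible gene is printed. A gene named outside this rule is marked. Paralogs could share reads. The fit was repeated with RLE or total-count scaling, without a filter and with a stricter one, with DESeq2 1.42.0, a replicate block, HJX libraries alone, a 2-fold threshold and each HJX library left out.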

Additional observations from a re-analysis of the deposited data

Results flagged for a closer look

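The genes below stood out because their heat response differed between HJX and HPS32 by a test of the difference itself, edgeR's quasi-likelihood test of the interaction with Benjamini-Hochberg adjustment over all tested genes, in which 29.3% of genes were called. Values are log2 differences, HJX minus HPS32, so that a positive value is a larger rise or a shallower fall in HJX. The genes are among those named above, many of which were picked for a large heat response in HJX. The difference uses the same HJX values, so this choice favours differences in the direction of the HJX response. The signs below therefore cannot show which line responded more. Among folding and removal genes the difference was positive, at 1.39 for Os06g0159600, 1.34 for Os06g0195800, 1.25 for Os05g0519700, 1.07 for Os04g0352400, 0.68 for Os08g0500700 and 0.43 for Os09g0482100. It was negative in the same class, at -1.12 for Os08g0382400, -1.05 for Os11g0202300 and -0.85 for Os02g0781400. Among transcription factor genes the difference was positive, at 3.41 for Os11g0126900, 2.75 for Os12g0123700, 1.85 for Os04g0583900, 1.85 for Os09g0417800, 1.83 for Os02g0805250, 1.49 for Os06g0662200, 1.42 for Os04g0398000 and 0.57 for Os09g0526600. Negative values were -1.19 for Os03g0251350, -1.17 for Os07g0695100, -0.84 for Os10g0556200 and -0.69 for Os12g0601800. Among genes of RNA handling, chromatin and division the difference was positive, at 3.62 for Os05g0223200, 0.74 for Os03g0712900 and 0.50 for Os01g0589300. On the negative side stood -1.89 for Os05g0476200, -1.85 for Os11g0484300, -1.72 for Os12g0590500, -1.43 for Os02g0170000 and -1.05 for Os03g0785200.

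Among photosynthesis and carbon genes the difference was positive, at 3.60 for Os10g0553300, 3.30 for Os05g0438600, 2.80 for Os08g0495800, 2.08 for Os10g0565150, 1.75 for Os05g0187100, 1.59 for Os02g0550600, 1.51 for Os06g0172800 and 0.92 for Os02g0301100. It was negative in the same class, at -1.60 for Os01g0600900, -1.29 for Os04g0453200, -1.14 for Os05g0508900 and -0.90 for Os04g0692600. Among nitrogen and redox genes the difference was positive, at 1.90 for Os03g0712800, 1.75 for Os05g0162000, 0.74 for Os06g0727200 and 0.66 for Os07g0665200. Negative values were -2.78 for Os02g0770800, -1.62 for Os10g0554200, -1.31 for Os08g0468100 and -0.99 for Os02g0115700. Among stress, transport and defence genes the difference was positive, at 2.23 for Os02g0120100, 1.92 for Os10g0501500, 1.67 for Os05g0554000, 1.52 for Os01g0511100, 0.91 for Os01g0256500 and 0.89 for Os03g0244200. On the negative side stood -2.45 for Os07g0628900 and -1.75 for Os07g0628700.

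Among hormone and cell wall genes the difference was positive, at 1.88 for Os01g0221100 and 1.09 for Os03g0700700. It was negative in the same class, at -1.74 for Os11g0539200, -1.38 for Os10g0555900, -1.33 for Os02g0194700, -0.95 for Os05g0230700 and -0.52 for Os01g0805900. Among the remaining genes the difference was positive, at 5.61 for the unannotated transcript on chromosome 2 that starts at 9894262, 4.30 for Os08g0189200, 3.84 for Os07g0179700, 3.67 for Os11g0127600, 3.61 for Os05g0208550, 2.21 for Os05g0171900, 1.99 for Os11g0113700, 1.83 for Os02g0168100, 1.81 for Os12g0113500, 1.16 for Os02g0161900, 1.03 for Os04g0659300, 0.42 for Os11g0660500 and 0.39 for Os03g0670700. Negative values were -3.25 for Os08g0140300, -2.78 for Os02g0258200, -2.57 for Os11g0635500, -2.28 for Os01g0123700, -1.57 for EPlORYSAT000373608, -1.21 for Os03g0592500, -0.95 for Os11g0707000 and -0.80 for Os09g0346500.

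The size of the difference of 5.61 for the unannotated transcript on chromosome 2 is uncertain, since it had almost no reads at 28 °C in HJX. Some of these calls rested on the scaling or on single libraries. Scaled to total counts the difference was no longer called for Os01g0589300, Os03g0244200, Os03g0670700, Os04g0352400, Os04g0659300, Os09g0482100, Os09g0526600 and Os11g0660500, whose values there were 0.23, 0.64, 0.12, 0.81, 0.76, 0.16, 0.31 and 0.16. Leaving out heat library 1 ended the call for Os03g0244200 (0.87, adjusted p = 0.0513), Os11g0660500 (0.38, 0.0537) and Os11g0539200 (-1.62, 0.0948). Os11g0539200 was also not called without heat library 3 (-1.62, 0.0955). Without 28 °C library 3 Os04g0352400 was at 0.64 (adjusted p = 0.221). Os03g0670700 lost the call without heat library 1 or 3 or 28 °C library 2 (0.35 to 0.39, 0.0595 to 0.0888) and with RLE scaling (0.34, 0.0658), and Os04g0659300 on leaving out any one of the heat libraries or 28 °C library 3 (0.99 to 1.07, 0.0635 to 0.0858). Without the filter on low counts Os04g0659300 (1.03, 0.064) and Os11g0539200 (-1.73, 0.0596) were not called. Other named genes gained a called difference. Scaled to total counts these were -0.84 for Os01g0332800, -0.60 for Os01g0501800, -1.24 for Os02g0704000, -0.63 for Os03g0128000, -0.58 for Os03g0131200, -0.46 for Os04g0600200, -0.63 for Os04g0690800, -0.31 for Os06g0716700, -0.87 for Os07g0578800, -0.38 for Os08g0126700 and -0.59 for Os09g0474300. With the replicate block at 28 °C they were -0.57 for Os01g0332800, -0.98 for Os02g0704000, -0.36 for Os03g0128000, -1.82 for Os05g0497200, -1.14 for Os08g0386200, -0.32 for Os09g0474300, -0.34 for Os09g0524800 and 1.05 for the unannotated transcript on chromosome 6 that starts at 9893367.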

How the results depend on the processing

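The counts of heat calls in HJX, 9698 rises and 9381 falls, stayed within 1.5 times under every alternative except the test for changes beyond 2-fold, which gave 3520 rises and 4368 falls. They were 9617 and 9462 with RLE scaling, 9701 and 9622 with DESeq2, and 9301 and 9045 with the HJX libraries alone. Leaving out 1 HJX library at a time gave 9201 to 9486 rises and 8946 to 9183 falls, 3462 to 3985 positive differences and 2699 to 3427 negative ones. The majority of positive differences between the lines turned under 3 alternatives, to 1900 positive and 6581 negative with total-count scaling, 3609 and 3782 with RLE scaling and 3622 and 3715 with DESeq2. Total-count scaling also turned 1 of the named heat values, the Hsp90 gene Os06g0716700, to 0.23. With the replicate numbers of the 28 °C libraries as a block the counts were 10046 rises, 9592 falls, 4614 positive and 3967 negative differences. The block changed no heat call of a named gene and made the difference between the lines a call in 8 more named genes, as total-count scaling did in 11. Apart from metallothioneins, SAUR and GH3 genes it moved no list count by over 1.5 times. The planned fit of normalized values was not needed, since counts were deposited. The lists rest on domain wording, and TT2 and most organelle-encoded genes had too few reads to be tested.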
